A study of Mus musculus with 2 samples.

Results

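Zfp503, Zfp703 and Lrmda are 3 of the 21728 protein-coding gene symbols of the GENCODE M21 annotation on mouse chromosomes 1 to 19 and X, and were picked by symbol. They were listed because earlier results of these same peak lists had put their surroundings among the densest in accessible sites, so all counts and scores of peaks below are descriptions and carry no test. The assay was DNase-seq: DNase I cuts mainly DNA that is not wrapped in nucleosomes, and the ends of the cuts are sequenced to map accessible sites. The samples form 1 group of 2 biological replicates: whole embryos of the B6NCrl strain at 11 days, males and females pooled, labelled healthy, with a separate tissue entry each and a common donor entry. No treatment, mutation or second stage enters, so the comparisons are among the 3 genes, between the replicates and with the rest of the genome.

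Zfp503 (also called Nolz1) and Zfp703 are the mouse members of the NET family of zinc finger proteins, relatives of the fly genes no ocelli and elbow. They act mainly as transcriptional repressors that recruit Groucho/Tle co-repressors and histone deacetylases. Zfp503 is known from the developing striatum, spinal motor neurons and hindbrain. ZNF703, the human counterpart of Zfp703, lies in a region often amplified in luminal breast cancer. Lrmda encodes a leucine-rich repeat protein of melanocyte differentiation, and loss of its human counterpart causes a form of oculocutaneous albinism. It is no relative of the other 2 genes and is described here because it begins next to Zfp503 on the opposite strand.

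Each replicate has a list of peaks of 150 bp with a deposited score from 1 to 150, and a list of hotspots, broader stretches of enriched cutting with a −log10 q value that stops at 100. Replicate 1 had 204697 peaks and replicate 2 had 231103. Peaks are called shared where the lists of both replicates overlap by 1 bp or more, which held for 79.5% of all replicate 1 peaks and 70.3% of all replicate 2 peaks. A peak is called distal when its midpoint lay more than 1000 bp from every annotated transcription start site (TSS) of a protein-coding gene. Each gene was given a territory, the bases for which its own 5'-most TSS is the closest among protein-coding genes. In whole embryos, a strong site in few cells and a weak site in many cells cannot be told apart. The files hold intervals and not reads, so the depth is unknown.

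The sequences shown first are stretches outside coding sequence that aligned between the Zfp703 locus and the locus of Zfp503 and Lrmda. Windows of 450 bp centred on the 78 shared replicate 1 peaks of the Zfp703 territory were aligned, with repeats masked, to those on the 172 shared peaks of the Zfp503 and Lrmda territories, in both orientations. Of 26832 alignments, which had a median local score of 11 and a 99th percentile of 15, 9 separate pairs of stretches scored at least 25, a minimum set after the scores had been seen. The score adds 1 for each identical base and subtracts 1 for each mismatch and more for each gap. Of these pairs, 3 lay in the coding exons of Zfp503 and Zfp703, as is usual for genes of 1 family, and 6 lay outside coding sequence. All 6 had the same orientation relative to Zfp503 and to Zfp703, and they followed each other in the same order upstream of both genes. The next pair scored 21. Of the 28 pairs with scores from 18 up to 25, 16 had the same orientation.

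The 6 stretches are called elements 1 to 6 from the gene outwards. The 2 windows of each were aligned again under stricter penalties, with repeats not masked, and the best match is called the closest part. Elements are placed here by the distance of the middle of the closest part from the TSS, with negative values upstream. Element 1 (score 87) lay at −1.80 kb of Zfp503 and at −15.9 kb of Zfp703. Element 2 (score 35) lay at −4.94 kb of Zfp503 and at −62.9 kb of Zfp703. The other 4 all fell in intron 2 of Lrmda, on the far side of that gene's promoter from Zfp503. Element 3 (score 46) was at −163 kb of Zfp503 and at −169 kb of Zfp703. Element 4 (score 85) was at −179 kb of Zfp503 and at −207 kb of Zfp703. Element 5 (score 35) was at −203 kb of Zfp503 and −287 kb of Zfp703, and element 6 (score 27) at −209 kb of Zfp503 and −299 kb of Zfp703. The closest parts of elements 3 to 6 span 45.9 kb in Lrmda and 131 kb upstream of Zfp703, so the order is common to both loci while the spacing differs.

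**Figure D1:**
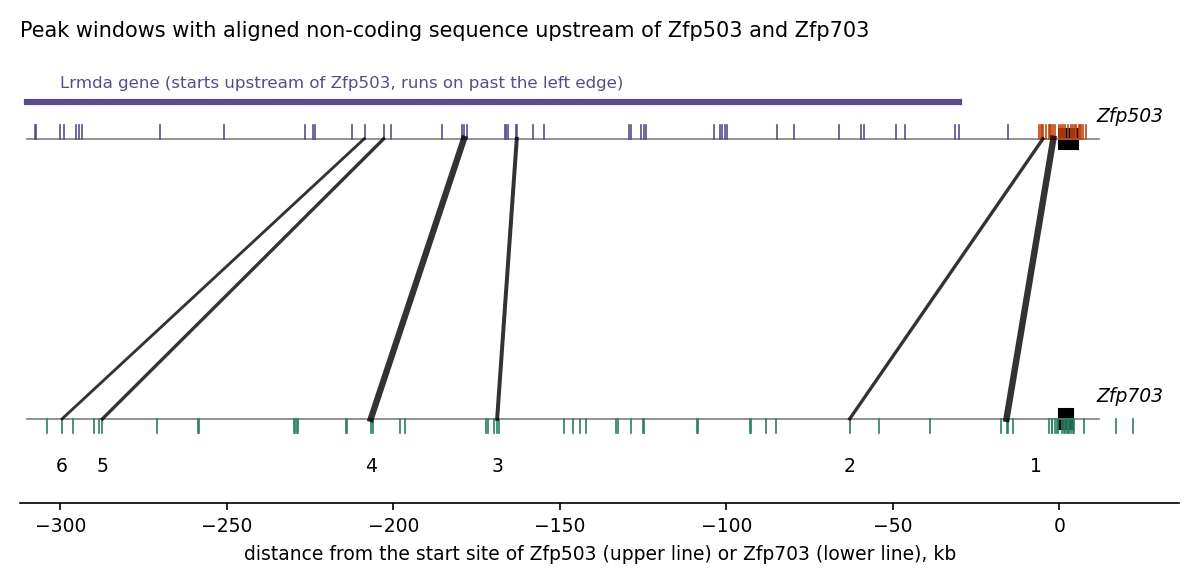
Shared replicate 1 peaks (ticks) by distance in kb from the start site of Zfp503 on the upper line and of Zfp703 on the lower line, with zero at the start site and the gene as a black box. Black lines join elements 1 to 6, drawn thicker for higher alignment scores from 27 to 87, and none of the 6 lines crosses another; the purple bar marks the part of Lrmda in view.

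A closest part can reach beyond the stretch scored above. For element 2 it had 113 columns, and the scored stretch had 81 bp at Zfp503 and 79 bp at Zfp703. The closest parts of elements 2 to 4 are shown because they let a reader see how alike the upstream sequence of Zfp703 is to that of Zfp503 and to Lrmda intron 2. They come from the GRCm38 reference sequence, and capitals mark the bases that are identical in the alignment of the 2 loci. The closest part of element 2 had 86 of 113 aligned columns identical (76.1%, 2 gaps), that of element 3 had 44 of 47 (93.6%) and that of element 4 had 66 of 79 (83.5%).
Element 2 upstream of Zfp503, chr14:21994486-21994598, minus strand: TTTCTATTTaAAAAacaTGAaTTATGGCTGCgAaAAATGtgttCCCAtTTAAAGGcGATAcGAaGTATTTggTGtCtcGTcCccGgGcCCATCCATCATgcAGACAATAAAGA
Element 2 upstream of Zfp703, chr8:26914329-26914439, plus strand: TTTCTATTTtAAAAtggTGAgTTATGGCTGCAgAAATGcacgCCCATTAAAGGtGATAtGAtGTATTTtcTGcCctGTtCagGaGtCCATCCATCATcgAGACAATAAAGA
Element 3 in Lrmda intron 2, chr14:22152494-22152540, minus strand: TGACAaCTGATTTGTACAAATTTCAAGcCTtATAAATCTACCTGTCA
Element 3 upstream of Zfp703, chr8:26808491-26808537, plus strand: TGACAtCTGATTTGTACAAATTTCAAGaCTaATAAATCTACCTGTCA
Element 4 in Lrmda intron 2, chr14:22168330-22168408, minus strand: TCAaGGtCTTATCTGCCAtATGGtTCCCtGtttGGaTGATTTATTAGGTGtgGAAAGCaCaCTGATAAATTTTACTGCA
Element 4 upstream of Zfp703, chr8:26770543-26770621, plus strand: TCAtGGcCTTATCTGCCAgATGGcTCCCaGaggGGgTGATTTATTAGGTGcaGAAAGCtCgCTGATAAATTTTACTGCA

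The Zfp503 and Lrmda copies of the closest parts were then searched for in the windows at all 162472 shared peaks of the genome with blastn. The Zfp703 copies were not searched for, and gaps were scored differently from the alignments above. For element 1, the Zfp703 window scored 80, against at most 19 in any window away from the aligned pair of stretches, other windows of these loci included. For element 2, the scores were 51 in the Zfp703 window and at most 21 elsewhere. For element 3 they were 41 and 20, and for element 4 they were 53 and 19. Since these parts were taken from alignments chosen for their match to the Zfp703 windows, a high score there is fixed by that choice, and the values only describe how close other windows came. The closest parts of elements 5 and 6 are short, 28 and 13 bp: element 5 scored 18 in the Zfp703 window and up to 17 elsewhere, and for element 6 a total of 163 windows elsewhere scored at least as high.

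The same alignment was made with the territories of Zfp608, Nr2f2 and Zfp36l1, regulators with a large number of distal peaks. Against the Zfp503 and Lrmda windows, the highest scores were 24 for Zfp608, 22 for Nr2f2 and 22 for Zfp36l1. Against the Zfp703 windows they were 19 for Zfp608, 20 for Nr2f2 and 22 for Zfp36l1. The highest of these, 24, is close to element 6 with 27 and to the minimum of 25, which was set after the scores had been seen, so the minimum draws no line between them.

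Elements 1 and 4 sit at the highest-ranked distal peaks of Zfp703. The peak at element 4, chr8:26770616-26770765, scored 111 in replicate 1 and 113 in replicate 2. The peak that overlaps part of element 1, chr8:26961476-26961625 in replicate 1, had the same 2 scores. Its replicate 2 partner was chr8:26961496-26961645. By mean rank of the score in the 2 lists, these 2 peaks tied for the best place among the 73 shared distal peaks of the territory. At Zfp503, the element 1 peak, chr14:21991336-21991485, scored 118 in both replicates and took the fifth place of that territory. The element 4 peak in Lrmda, chr14:22168196-22168345, scored 75 in replicate 1 and 80 in replicate 2.

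The closest parts of the elements did not always coincide with the peak itself, and overlap was not measured for the whole scored stretches. For element 1, all 108 bp of the closest part at Zfp503 lay inside the peak of each replicate, while at Zfp703 34 bp lay inside the replicate 1 peak. There, 103 bp lay inside a replicate 2 peak, chr8:26961356-26961505, which scored 110 and is not the partner scoring 113. At Zfp703, the closest parts of elements 3 and 4 overlapped the replicate 1 peak by 35 and 6 bp and no replicate 2 peak. For element 4, this part had 79 bp there, against 240 bp in the scored stretch. In Lrmda, the closest part of element 3 had 45 bp in a replicate 1 peak and 5 bp in a replicate 2 peak. That of element 5 in Lrmda had 0 bp in replicate 1 and 19 bp in replicate 2, and that of element 6 had 0 bp in both. Of the 12 copies of the closest parts, 10 lay wholly within hotspots of both replicates. The other 2 (element 3 and element 5 in Lrmda) did so in 1 replicate and in part in the other. Because the aligned windows were centred on shared peaks, cover by hotspots is largely fixed by that choice.

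A few of the motifs searched across the genome were present in both copies of the closest part of an element. That of element 4 held the Pbx-Hox motif TGATTNAT and the Gata motif AGATAA in both copies, and that of element 3 held the Meis/Tgif motif TGACAG in both. In the closest part of element 4, the E-box CATATG was in the Lrmda copy only and CATCTG in the Zfp703 copy only. Sequence matches of this kind are descriptions and say nothing on binding.

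The accessible sites at the 3 genes differ in layout. Zfp503 (ENSMUSG00000039081.10, chr14:21983959-21989601, minus strand, 3 exons) has a territory of 85.4 kb with 33 peaks in replicate 1 and 36 in replicate 2. Of these, 31 (93.9%) and 29 (80.6%) were shared, a mean of 87.2% ± 9.46 (SD of both directions, n = 2), against 79.5% and 70.3% of all peaks. There were 29 shared distal peaks, or 34.0 per 100 kb, against 4.90 per 100 kb over all assembled sequence. Only 0.788% of the 21701 territories with assembled sequence had this density or more, a value that chose the gene and supports nothing by itself. Hotspots covered 15.8% of the territory in replicate 1 and 18.4% in replicate 2 (17.1% ± 1.87, SD, n = 2), against 2.41% and 2.85% of all assembled sequence.

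Most of these sites were packed at the Zfp503 gene. Of the 31 shared peaks of the territory, 25 lay within 14150 bp, chr14:21981576-21995725, with no step between neighbouring midpoints above 3000 bp. A second group of 5 lay 20450 to 22050 bp past the TSS, beyond the 3' end, and no shared peak lay farther than 26710 bp in that direction. In this group, replicate 1 peaks chr14:21967476-21967625 and chr14:21967496-21967645 overlap each other. Both are shared through the same replicate 2 peak, chr14:21967536-21967685. The gene body of 5643 bp had 9 peaks in each replicate, and 8 and 9 of them were shared. Hotspots covered 91.1% of the body in replicate 1 and 99.3% in replicate 2. Among the 6129 genes with bodies of 2 to 10 kb these values ranked 10 and 17 from the highest, against medians of 5.99% in replicate 1 and 7.05% in replicate 2.

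The 2 best-ranked distal peaks of Zfp503 lay inside the gene. A peak in intron 1, chr14:21988396-21988545, scored 142 in replicate 1 and 145 in replicate 2. A peak in the untranslated part of exon 2, chr14:21987876-21988025, scored 140 in replicate 1 and 145 in replicate 2. A peak outside the gene, 7950 bp past the TSS and beyond the 3' end, chr14:21981576-21981725, scored 130 in replicate 1 and 137 in replicate 2. A peak within the coding part of exon 3, chr14:21986076-21986225, scored 109 in replicate 1 and 127 in replicate 2. All 4 lay in hotspots at the ceiling value of 100 in replicate 1. The coding part of exon 3 held 3 shared peaks in all.

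At the Zfp503 promoter, replicate 1 had peaks scoring 106 (over the TSS) and 84 (centred 550 bp into the gene), and replicate 2 had peaks scoring 112 and 102 at matching places. Replicate 2 had another peak, centred at −250 bp, with a score of 109. It overlapped no replicate 1 peak, and it lay in a replicate 2 hotspot at the ceiling. The 250 bases before the TSS are shown from RefSeq (GRCm38.p6) to place these calls, with capitals for the 64 bases that lay inside peaks of both replicates.
Zfp503 promoter, chr14:21989602-21989851, minus strand: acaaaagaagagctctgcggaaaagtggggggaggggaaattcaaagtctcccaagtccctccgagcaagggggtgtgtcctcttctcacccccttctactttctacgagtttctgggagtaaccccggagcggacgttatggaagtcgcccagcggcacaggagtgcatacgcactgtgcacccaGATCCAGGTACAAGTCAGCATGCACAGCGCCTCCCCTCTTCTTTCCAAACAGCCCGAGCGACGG
None of the 16 motifs searched had a match in the RefSeq promoter window of Zfp503, which also runs 50 bases past the TSS; the Sp/Klf motif GGGCGG was in 35.7% of the 32851 such windows.

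Zfp703 (ENSMUSG00000085795.8, chr8:26977325-26981461, plus strand, 2 exons) has a territory of 433 kb, nearly all of it upstream. It held 105 peaks in replicate 1 and 97 in replicate 2, of which 78 (74.3%) and 79 (81.4%) were shared (mean 77.9% ± 5.06, SD of both directions, n = 2). Zfp703 thus had fewer peaks in replicate 2, whereas the whole list of replicate 2 was the longer one. Of 519 territories with at least 50 replicate 1 peaks, 49 (9.44%) had a ratio of replicate 2 to replicate 1 as low as the 0.924 of Zfp703 or lower, and the median ratio was 1.09. Hotspot cover was also slightly lower in replicate 2, with 8.17% in replicate 1 and 7.72% in replicate 2 (7.95% ± 0.313, SD, n = 2).

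The territory of Zfp703 held 73 shared distal peaks, or 16.9 per 100 kb, and 2.15% of the 5918 territories of at least 100 kb had this density or more. Of these peaks, 64 (87.7%) lay upstream of the TSS, 5 in the gene body and 4 downstream. Every complete 50 kb step from −400 kb to the TSS held between 5 and 11 of them, so they were spread over the whole upstream stretch. The longest gap between shared peaks was 28360 bp. The bordering gene on that side is Thap1, whose TSS lies 819184 bp away and whose territory had 11.2 shared distal peaks per 100 kb. The other neighbour, Erlin2, starts 45936 bp beyond the Zfp703 TSS and had 12.3 per 100 kb. Zfp503 and Lrmda, taken as 1 stretch of 1098 kb, had 167 shared distal peaks or 15.2 per 100 kb. Comtd1, the neighbour of Zfp503 on its 3' side, had 8.52 per 100 kb.

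Shared peaks crowded at 3 places of the Zfp703 territory (at least 5 peaks, steps of at most 3000 bp). The gene itself held 16 shared peaks within 10530 bp, with median scores of 81 in replicate 1 and 85.5 in replicate 2. A group of 5 around element 3, chr8:26805116-26809025, had a median score of 85 in both replicates. A group of 5 at the far end, chr8:26594136-26597225, had median scores of 48 in replicate 1 and 57 in replicate 2. The Lrmda copy of element 3 also lay in such a group of 5, chr14:22152496-22156105, with lower median scores of 52 in replicate 1 and 60 in replicate 2.

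The Zfp703 gene body of 4137 bp had 8 peaks in each replicate, all shared, with hotspots over 70.2% of it in replicate 1 and 89.0% in replicate 2. Of the 8, 4 lay in coding exon 2, which also holds the stretches that aligned with coding exon 3 of Zfp503. The promoter peak was called at the same position in both replicates, with scores of 135 in replicate 1 and 139 in replicate 2. It had the highest score of the territory in each list. A peak in intron 1 scored 94 in replicate 1 and 107 in replicate 2, and it lay 54 bp from another annotated TSS of the gene.

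**Figure D2:**
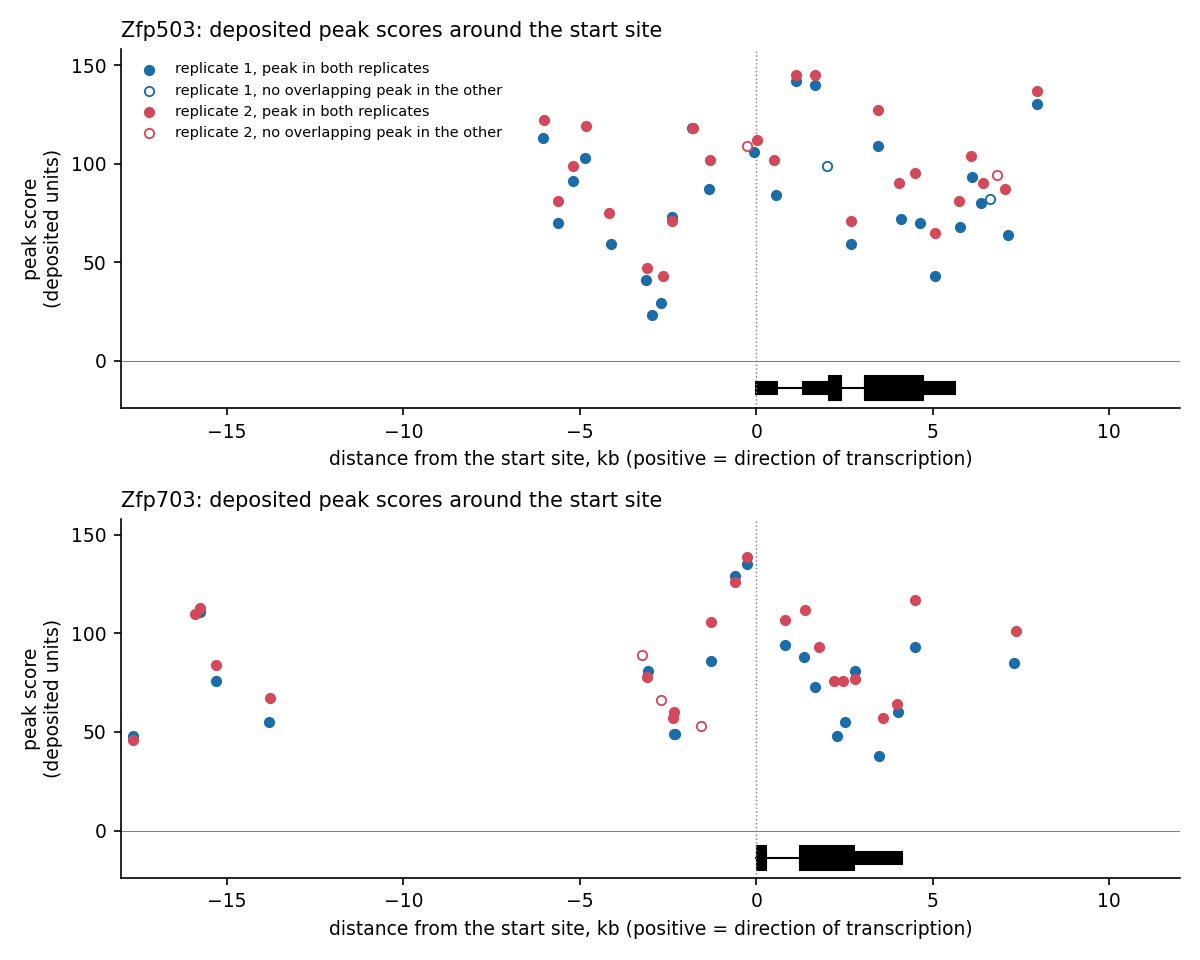
Deposited score of each peak (vertical axis) against its distance from the start site in kb (horizontal axis), for Zfp503 above and Zfp703 below, with the gene drawn under each panel (thin boxes untranslated, tall boxes coding). Filled points are peaks in both replicates; at Zfp503 they crowd from −6050 to 7950 bp and peak in intron 1 at 142 and 145, and at Zfp703 the promoter peak at 135 and 139 is the highest.

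Lrmda (ENSMUSG00000063458.13, chr14:22019712-23056085, plus strand, 7 exons) is a gene of 1036 kb whose TSS lies 30111 bp from that of Zfp503. Its territory of 1012 kb held 179 peaks in replicate 1 and 191 in replicate 2, of which 141 (78.8%) and 140 (73.3%) were shared (mean 76.0% ± 3.87, SD of both directions, n = 2). These shares are close to those of the whole lists. There were 138 shared distal peaks, rank 3 from the highest of the 21728 territories, or 13.6 per 100 kb, and 5.22% of the 5918 territories of at least 100 kb had this density or more. Hotspots covered 5.48% of the territory in replicate 1 and 6.12% in replicate 2 (5.80% ± 0.454, SD, n = 2). These counts rest on how a territory is bounded: with the TSSs of non-coding genes as borders too, 19 shared distal peaks remained for Zfp503, 4 for Zfp703 and 0 for Lrmda.

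All but 1 of the 138 lay inside the Lrmda gene, and all of those in introns. The whole gene body held 142 shared peaks, including some that were not distal or lay past the territory. Of these 142, intron 2 (551 kb) held 78 or 14.2 per 100 kb. Intron 5 (232 kb) held 43 or 18.5 per 100 kb, and intron 6 (227 kb) held 17 or 7.48 per 100 kb. The density in intron 6 was thus the lowest of the 3 long introns. No complete 50 kb step of the territory was without shared distal peaks, and their counts ran from 2 to 12 per step. Past the territory, the last 39.0 kb of the gene, which lies nearer to the Kcnma1 TSS, had 6 peaks in replicate 1 and 2 in replicate 2. The territory of Kcnma1 had 62 shared distal peaks, or 5.57 per 100 kb.

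Among the 230 genes with bodies of at least 500 kb, Lrmda had rank 4 for hotspot cover of the body in replicate 1 (5.41%, median of these genes 1.37%) and rank 7 in replicate 2 (5.99%, median 1.69%). Its best-ranked distal peak, in intron 5, chr14:22808376-22808525, scored 116 in replicate 1 and 123 in replicate 2. The next, in intron 2, chr14:22115116-22115265, scored 117 in replicate 1 and 119 in replicate 2. Neither held any of the 16 motifs. A peak just before exon 3, chr14:22577576-22577725, scored 116 in replicate 1 and 109 in replicate 2. It lay 76 bp from the TSS of a further annotated transcript of Lrmda and so was not counted as distal. The peak at the 5'-most TSS of Lrmda scored 100 in replicate 1 and 103 in replicate 2.

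**Figure D3:**
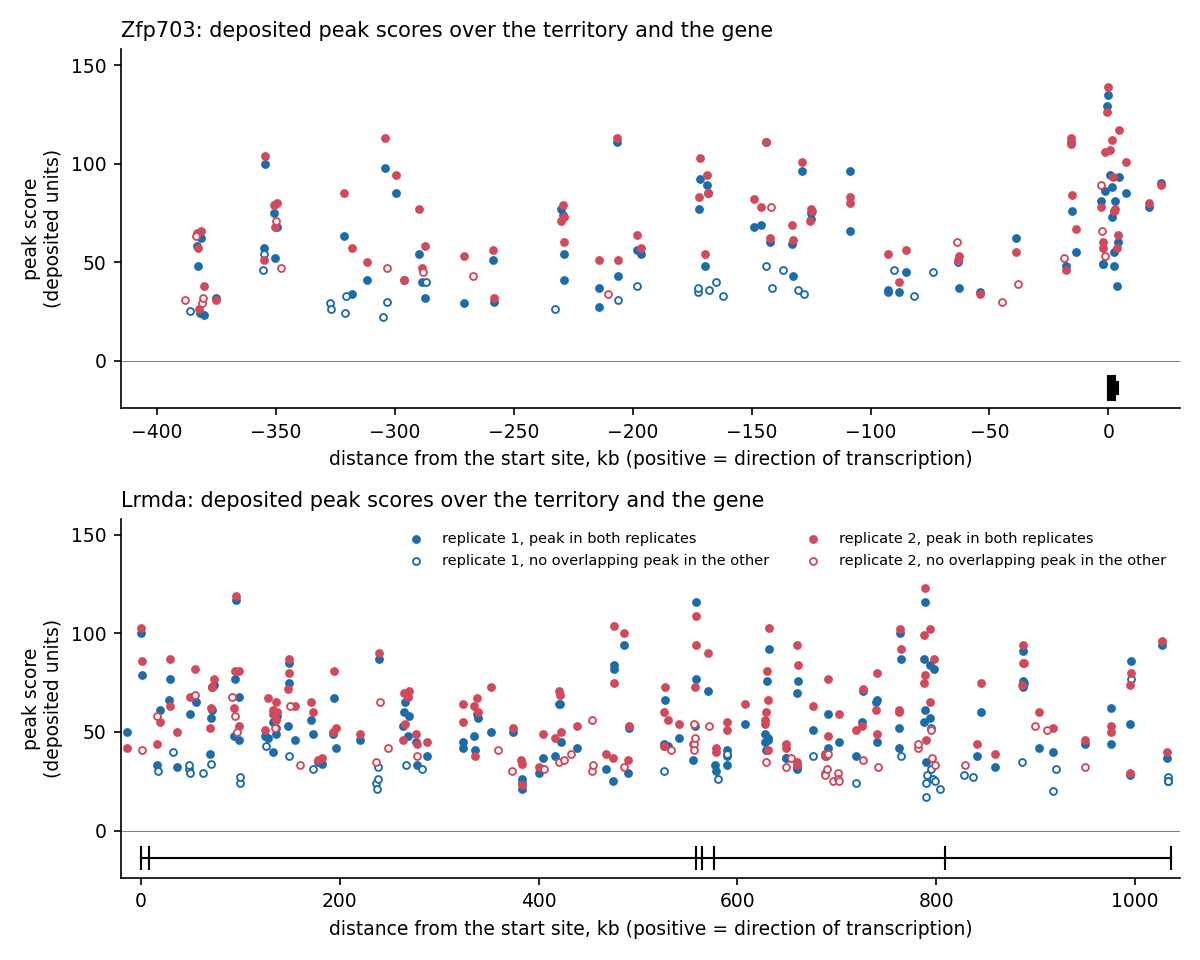
Deposited score of each peak (vertical axis) against its distance from the start site in kb (horizontal axis) for Zfp703 (above) and Lrmda (below), with the gene and its exons drawn under each panel. Filled points are peaks in both replicates; they reach back to −383114 bp of Zfp703, and at Lrmda they fill the introns, with the best-ranked distal peak at 788739 bp.

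All 3 genes had a promoter peak in both replicates (within 500 bp of any annotated TSS), as did 70.3% of all protein-coding genes. The scores of their distal peaks did not follow the same order as their counts. The median score of shared distal peaks was 72 in replicate 1 and 90 in replicate 2 for Zfp503, 57 and 68.5 for Zfp703, and 49.5 and 60 for Lrmda. Over all shared distal peaks of the genome it was 46 in replicate 1 and 55 in replicate 2. The widest stretches inside hotspots of both replicates were 3032 bp at the start of Zfp703, 2593 bp at the start of Zfp503 and 1581 bp at Lrmda, centred 995742 bp into the gene. Of the shared distal peaks, 65.5% at Zfp503 lay in hotspots at the ceiling in replicate 1 and 81.5% in replicate 2. At Zfp703 the shares were 46.6% and 43.2%, at Lrmda 36.2% and 37.2%, and over the genome 38.8% and 46.6%. Zfp503 stood above the genome in both lists by this measure, and Lrmda below it in both.

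The 2 replicates ordered the shared peaks of each gene alike. Across peaks, Spearman's rho of the scores was 0.966 for the 31 shared peaks of Zfp503, 0.926 for the 78 of Zfp703 and 0.905 for the 141 of Lrmda. Peaks of 1 locus share their libraries and are not independent. The score was higher in replicate 2 for 29 peaks of Zfp503, 64 of Zfp703 and 124 of Lrmda. Peaks without a partner had lower scores, with medians of 36 in replicate 1 and 47 in replicate 2 for Zfp703 and of 30 and 38 for Lrmda. Zfp503 differed here in replicate 1, where its only 2 unshared peaks had a median of 90.5, and both lay in a replicate 2 hotspot. Most unshared peaks lay outside hotspots of the other replicate, with 6 of 27 inside one in replicate 1 at Zfp703 and 9 of 38 at Lrmda.

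**Figure D4:**
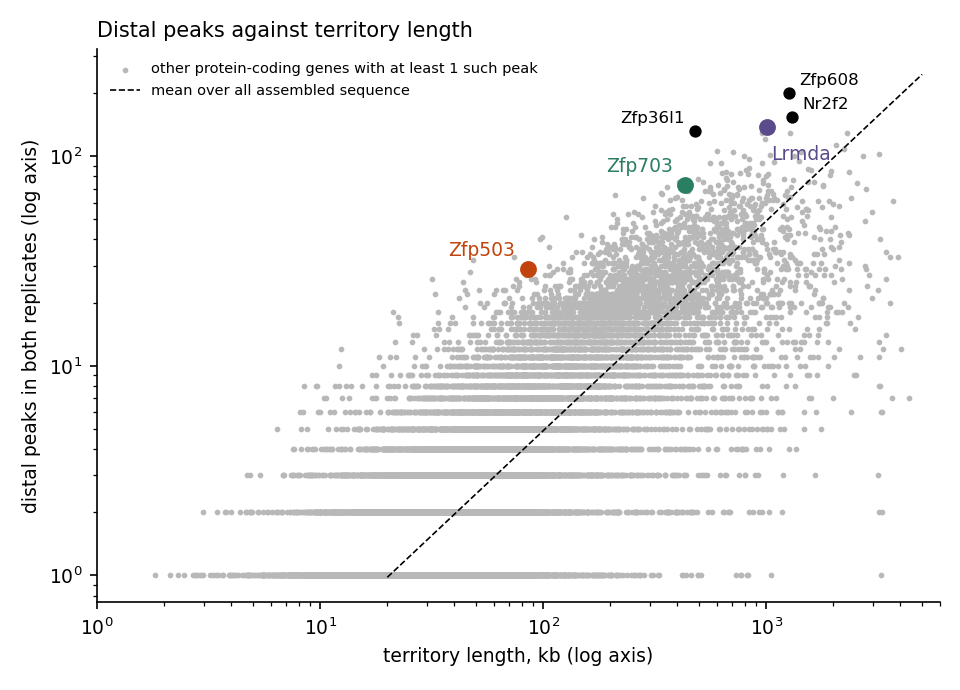
Number of distal peaks found in both replicates (vertical log axis) against territory length in kb (horizontal log axis) for each protein-coding gene with at least 1 such peak; the dashed line is the mean of 4.90 per 100 kb. Zfp503 (29 peaks), Zfp703 (73) and Lrmda (138) lie above the line, as do Zfp608, Nr2f2 and Zfp36l1 (black).

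By the joint distance in log2 territory length and log2 shared distal density, the genes most like Zfp503 were Mrpl23, En2 and Ahdc1, at distances of 0.080, 0.13 and 0.15. Those most like Zfp703 were Gm26897, Zfp217 and Nfe2l3, at 0.072, 0.14 and 0.15. Those most like Lrmda were Zfhx3, Meis1 and Sox2, at 0.088, 0.15 and 0.36. Likeness rests on these 2 measures over 2 libraries and says nothing on function. All of these but Gm26897 had a promoter peak in both replicates. Set beside the 3 genes, the territory of Zfp608 had 199 shared distal peaks (15.7 per 100 kb), that of Nr2f2 had 153 (11.8 per 100 kb) and that of Zfp36l1 had 131 (27.2 per 100 kb).

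Of the 16 motifs searched, some differed from the genome share in the same direction at Zfp703 and Lrmda. The octamer TGATTNAT, the motif of Pbx-Hox pairs of homeodomain proteins, was present (either strand) in 10 of 73 shared distal peaks of Zfp703 (13.7%, exact 95% interval 6.77 to 23.8) and in 15 of 138 of Lrmda (10.9%, 6.21 to 17.3). It was present in 1 of 29 of Zfp503 (3.45%, 0.087 to 17.8) and in 3.26% of the 125447 shared distal peaks of the genome. Among 223 territories with at least 50 shared distal peaks, which exclude Zfp503, the median share was 3.57%, Zfp703 ranked 1 and Lrmda ranked 5 from the highest. The shares were 4.52% at Zfp608, 5.88% at Nr2f2 and 1.53% at Zfp36l1. Intervals cover counting error only, and neighbouring peaks are not independent.

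The peaks with this motif were spread over both territories. At Zfp703 they ran from −383 to 22.1 kb of the TSS and had median scores of 79.5 in replicate 1 and 82.5 in replicate 2, against 54 and 62 for the other 63 peaks. At Lrmda they ran from 71.8 to 887 kb, with median scores of 55 in replicate 1 and 61 in replicate 2, against 49 and 60 for the other 123. The variants TGATTAAT (5 peaks) and TGATTTAT (3 peaks) led at Zfp703, and TGATTTAT (7 peaks) at Lrmda. A peak of each gene is printed from GRCm38 as an example: one upstream of Zfp703, which scored 111 in both replicates and has TGATTNAT (either strand) in capitals, and one of Lrmda that scored 100 in replicate 1 and 102 in replicate 2, with TGATTNAT and the Sox motif ACAAAG in capitals.
Zfp703 upstream peak, chr8:26833456-26833605, plus strand: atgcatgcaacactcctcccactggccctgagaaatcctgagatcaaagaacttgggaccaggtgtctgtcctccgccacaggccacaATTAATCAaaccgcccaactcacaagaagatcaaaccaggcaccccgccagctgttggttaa
Lrmda intron 5 peak, chr14:22783396-22783545, plus strand: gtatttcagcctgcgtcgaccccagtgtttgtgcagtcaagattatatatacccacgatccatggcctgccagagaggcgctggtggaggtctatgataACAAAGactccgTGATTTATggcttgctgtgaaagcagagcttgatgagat

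The shares of other motifs are given here without a test. The Sp/Klf motif GGGCGG was in 20.7% of the distal peaks of Zfp503 and 20.5% of those of Zfp703, against 4.35% of those of Lrmda and 8.28% of all. The mean GC content went the same way, with 56.0% at Zfp503, 53.4% at Zfp703, 50.5% at Lrmda and 51.7% over the genome, and the part of base composition in the motif counts was not tested. The forkhead motif TGTTTAC was in 0 of the 29 peaks of Zfp503, 3 of the 73 of Zfp703 (4.11%) and 5 of the 138 of Lrmda (3.62%), against 1.97% of all. At Lrmda, ACAAAG was in 22.5% of peaks against 14.5% of all, and the homeodomain motif TAATTA in 7.25% against 3.35%. Among the 223 territories with at least 50 shared distal peaks, Lrmda ranked 27 from the highest for ACAAAG and 23 for TAATTA. The 90th percentiles of these territories were 23.1% and 7.23%. A CTCF core motif was in 0 of the 29 peaks of Zfp503, 0 of the 73 of Zfp703 and 1 of the 138 of Lrmda (0.725%), against 5.51% of all shared distal peaks. Of the 223 territories, 64 had no peak with this motif, and the median share was 1.72%.

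**Figure D5:**
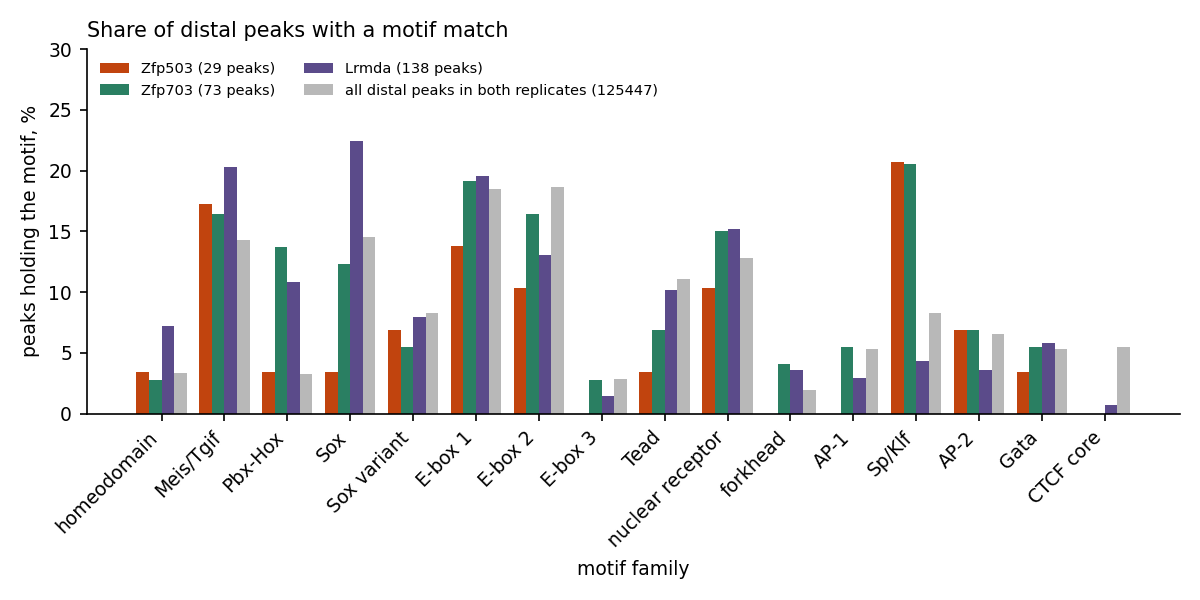
Share of shared distal peaks with a match to each motif (vertical axis, percent) for Zfp503 (29 peaks), Zfp703 (73), Lrmda (138) and all shared distal peaks of the genome (grey). The Pbx-Hox bars of Zfp703 and Lrmda stand at 13.7% and 10.9% beside 3.26% for the genome, the CTCF bars of Zfp503 and Zfp703 are at 0, and E-box 1 to 3 are variants of the bHLH motif.

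Other annotated transcripts, mostly non-coding RNAs, start within these territories. A peak within 500 bp of the TSS was found in both replicates for C130012C08Rik, whose TSS is at −2835 bp of Zfp503, with best scores of 73 in replicate 1 and 71 in replicate 2. It was also found for Gm32050 and 2310008N11Rik upstream of Zfp703 and for Gm45371, which starts antisense within Zfp703, with best scores of 81 and 77. Of the non-coding RNAs inside Lrmda, Gm7480 had such peaks, with best scores of 33 in replicate 1 and 58 in replicate 2, while Gm27532, 4930405A10Rik and Gm47601 had none. Peaks at these starts are counted in the totals above, since only protein-coding TSSs define distal peaks.

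Lists of genes from the same pathways were set beside the 3 genes. Of 10 co-repressor and partner genes (Tle1, Tle2, Tle3, Tle4, Tle6, Hdac1, Hdac2, Ncor1, Dcaf7 and Phb2), 10 had a promoter peak in both replicates, against 70.3% of all genes. Of the 9 Sp factors, zinc finger proteins that share the buttonhead box with the NET family, all 9 did. The median shared distal density was 8.71 per 100 kb for the co-repressor genes and 12.8 per 100 kb for the Sp genes, against 4.12 over all genes. Within the co-repressor list the density ran from 2.85 per 100 kb for the histone deacetylase gene Hdac2 to 43.3 for Tle2. Among the other Groucho-type genes, Tle1 had 4.93, Tle4 had 6.69, Tle6 had 6.31 and Tle3 had 16.6 per 100 kb. Within the Sp list it ran from 5.87 per 100 kb for Sp4 to 59.8 for Sp9, a factor of limb and striatum.

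Pigment cell genes were listed for the role of Lrmda. Of 12, 7 had a promoter peak in both replicates, against 70.3% of all genes: Mitf, Sox10, Kit, Dct, Pmel, Oca2 and Gpr143. Slc24a5 and Mlana had one in replicate 2 only. The enzyme genes Tyr and Tyrp1 and the transporter gene Slc45a2 had none in either list. Lrmda had 13.6 shared distal peaks per 100 kb, against a median of 3.81 over the 12 and 4.12 over all genes.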

How the data were processed

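DNase-seq of 2 biological replicates of whole embryos was analysed from the deposited interval lists on mm10. Per the file headers and accompanying text, the authors made each list from the filtered alignments of its own replicate. Aligner, caller and filters were not given in the sources used here. The deposited peak score (1 to 150) has no stated construction and was used only to rank or describe peaks. The deposited hotspot value is a −log10 q value with a ceiling of 100. No counts are given, so the depth is unknown.

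Genes came from GENCODE M21 and sequences from GRCm38 and RefSeq. Overlaps, territories and motif matches (either strand) were computed in Python 3.11.15 with numpy 2.4.6, alignments with Biopython 1.88 (match 1, mismatch −1, gap opening −3, extension −1; closest parts with −2, −4 and −2) and blastn 2.17.0 (word size 7). The overlap, territory, coverage and motif functions were tested on simulated data.

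The members, lists and motifs were chosen with earlier results of these data known, and the alignments and their minimum score of 25 after values had been seen. Named genes are the 3 members, their neighbours, the 3 most like each, Zfp608, Nr2f2 and Zfp36l1, and genes of the pathway lists; the non-coding genes inside the territories were named after their values were seen; named peaks are promoter peaks and the 5 best-ranked distal peaks per gene, the widest hotspot stretches, and those at aligned elements. Values of both replicates show the spread between samples with 1 donor entry, which may be technical. No test was run, because peaks of 1 locus are not replicates and chose the genes. Some sequences and 1 gene of the co-repressor list are not reported here.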

Additional observations from a re-analysis of the deposited data

How the results depend on the processing

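No paired analysis was possible because both replicates belong to 1 group. Of 98 recomputed values for 17 results, 82 stayed within 1.5 times the reported count, 1 SD of the replicates or the exact interval. For hotspot cover, values of 1 replicate had to stay within 1 SD, since mean and SD came from the same 2 values. All 3 promoters kept their peak under all 7 alternatives. From either replicate's list alone, distal peaks numbered 31 to 33 (Zfp503), 92 to 100 (Zfp703) and 176 to 186 (Lrmda), and peaks in the body 9, 8 and 184 to 192. Hotspot cover of 1 replicate ran from 15.8% to 18.4%, 7.72% to 8.17% and 5.48% to 6.12%, and the TGATTNAT share from 3.03% to 3.23%, 11.0% to 13.0% and 11.3% to 11.4%. The aligned pairs outside coding sequence numbered 6 to 8.

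Bounding territories by the TSSs of all annotated genes left 19 shared distal peaks at Zfp503, 4 at Zfp703 and 0 at Lrmda, because non-coding genes inside the territories take the rest by construction; in what then remained of the Zfp703 territory 85.0% of peaks were shared. With the better-scoring 50% of peaks, Lrmda kept 84 distal and 88 body peaks and a shared percentage of 83.0%, and the TGATTNAT share of Zfp503 was 0. With an overlap of at least 75 bp, shared percentages were 77.0% (Zfp503), 66.4% (Zfp703) and 70.1% (Lrmda), and Zfp703 had 5 body peaks. Hotspots at the ceiling alone covered 4.78% of the Zfp703 and 3.02% of the Lrmda territory. The alternatives for motifs and alignments, merged peaks and scores with a decimal point were added after seeing the data. Without repeat masking 80 pairs aligned, 40 of them in the same orientation and including all 6; peaks without flanks gave 3. For the other moved values the cause was not tested. The unknown depth limits every absence of a peak.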

Other observations

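The alignment of both loci was repeated on the peaks of each replicate alone, a choice made after seeing the data. Windows at all replicate 1 peaks gave the same 6 non-coding pairs, and those at all replicate 2 peaks gave these 6 and 2 more. Both additions were in the same orientation and continued the order outwards. The first scored 39 and lay at −224 kb of Zfp503, in Lrmda, and at −350 kb of Zfp703. The second scored 43 and lay at −266 kb of Zfp503 and −354 kb of Zfp703. In this list, 8 of 8 pairs outside coding sequence thus had the same orientation. Without repeat masking, windows at the shared replicate 1 peaks gave 40 of 80. That set differs in its peaks and includes the 6 pairs, so the 2 figures are not a like comparison.

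Scores written with a decimal point in the deposited peak lists make up 5.12% of replicate 1 and 4.97% of replicate 2. Of these peaks, 51.3% in replicate 1 and 50.5% in replicate 2 overlapped another peak of their own list, against 2.86% and 2.80% of the others, and 49.4% and 38.1% were shared, against 81.1% and 71.9%. Zfp503 had 3 such peaks in replicate 1 and 1 in replicate 2, Zfp703 10 and 4, and Lrmda 14 and 7. Without them, the shared distal peaks numbered 25, 68 and 133.

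The better-scoring 50% of peaks retained all 10 TGATTNAT peaks of Zfp703, which raised their share to 19.6% of 51 peaks, while the genome share was 2.81%. At Lrmda 11 of the 15 such peaks remained (13.1% of 84 peaks), and at Zfp503 the only 1 was lost.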
